A study of Mus musculus with 8 samples.

Results

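Transcripts of whole thymocytes from wild-type mice of 2 strains, labelled B6 and BALB, were compared across 11409 genes that had enough counts, of 23420 gene symbols listed. The members are all genes kept by a low-count filter over the 4 groups of libraries, whatever their strain difference. A total of 4 of the 8 libraries of the series enter directly, 2 of whole thymocytes from each strain. The other 4, 2 per strain, hold double-positive (DP) thymocytes sorted as CD4+ CD8+ CD69- cells with low or medium H57 staining of the T cell receptor beta chain. They share in the estimate of the spread and served to tell genes of DP cells from genes of rarer cells.

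All 4 groups were wild type, untreated as far as the labels say, and came from thymus. The labels give no substrain, age or sex. Nor do they say whether replicates 1 and 2 of a group are separate animals. P-values therefore measure only the spread between these libraries, which may be technical in some groups. The 2 BALB whole thymocyte libraries differed in Xist and Y-linked RNA, as given below, so their spread is not technical alone. BALB and B6 differ across the whole genome, so that no single allele is isolated by the comparison.

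The thymus makes T cells from precursors that lack both CD4 and CD8 and pass through the DP stage. At that stage recombinase rearranges the T cell receptor alpha gene, and cells whose receptor engages MHC molecules on cortical epithelium survive and mature into CD4 or CD8 single-positive cells. DP cells are the bulk of the organ. A whole thymocyte preparation also carries single-positive cells, innate-like T cells marked by the transcription factor PLZF, regulatory T cells, B cells, dendritic cells, macrophages and traces of epithelium. In BALB mice PLZF-positive cells are known to make IL-4, under which CD8 thymocytes take up the transcription factor Eomes and a memory-like state.

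Counts in genes were 3907143 and 4069166 in the B6 and 3952234 and 3879807 in the BALB whole thymocyte libraries, and 2632083 to 5974684 over all 8. On log2 CPM (the counts of a gene scaled to a common library size), Pearson's r across genes was 0.990 between the B6 and 0.983 between the BALB replicates, and 0.962 to 0.964 between strains. Rag1, Cd4 and Cd8a, which mark DP cells, were abundant in all 4 whole libraries. The 2 BALB libraries stood apart from each other in sex-linked genes. Replicate 1 had 2974 CPM of Xist, the RNA that silences an X chromosome, and 0 CPM of the Y-linked Ddx3y, Kdm5d, Uty and Eif2s3y. Replicate 2 had 50.7 CPM of Xist, 181 of Ddx3y, 96.4 of Kdm5d, 71.4 of Uty and 8.49 of Eif2s3y. The B6 libraries had 1.45 to 2.25 CPM of Xist and 113 to 114 of Ddx3y. So 1 of the 2 BALB libraries lacked these Y-linked transcripts and neither B6 library did. Sex was not in the model, and its part in the strain differences was not tested. BALB replicate 2 also carried more granulocyte transcripts than the other 3, as given below. In bulk RNA, fewer cells of a type and less RNA per cell cannot be told apart.

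Of the 11409 genes, 524 (4.59%) differed between strains at an adjusted p under 0.05 (edgeR's quasi-likelihood test, adjusted over all genes by the Benjamini-Hochberg method), 226 (1.98%) higher and 298 (2.61%) lower in BALB. The CPM of the 2 groups did not overlap for any of the 524, against 48.6% of all genes tested. More than 4-fold differences were found in 80 called genes higher and 79 lower in BALB. Over all genes the median log2 fold change, always given as BALB over B6, was 0.02. The number of calls fell to 245, 214, 267 and 258 when B6 replicate 1, B6 replicate 2, BALB replicate 1 or BALB replicate 2 of whole thymocytes was left out. It rose to 966 and 964 without BALB DP replicate 1 or 2, whose spread enters the error of every gene.

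**Figure D1:**
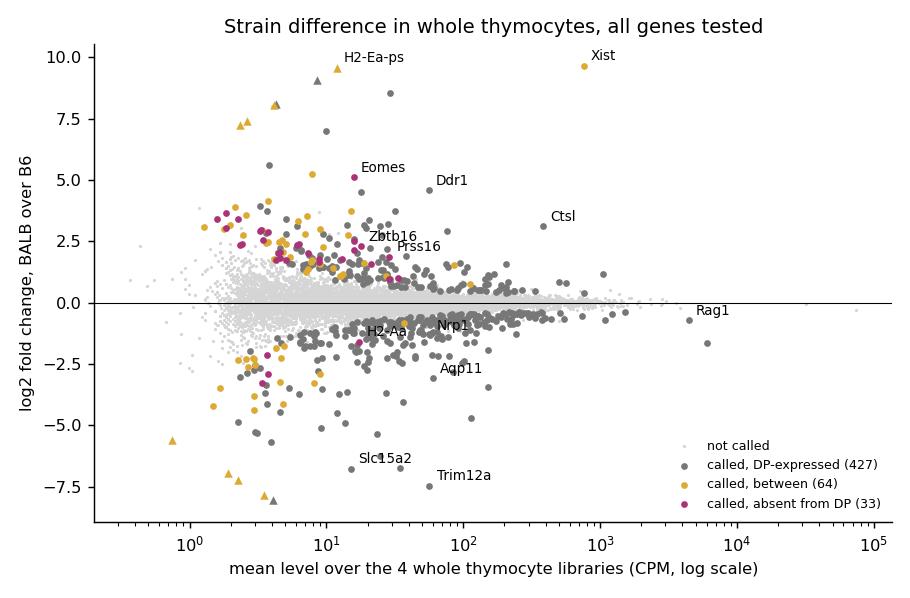
Log2 fold change of BALB over B6 in whole thymocytes (vertical axis) against the mean level over the 4 whole thymocyte libraries (horizontal axis, CPM on a log scale). Each point is 1 of 11409 genes. Called genes are coloured by their level in sorted DP thymocytes, and triangles are genes at 0 in both libraries of 1 strain, whose height depends on the prior count of the fit. The 33 called genes absent from DP thymocytes lie mostly above 0, at low levels.

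Genes were divided by their level in the sorted DP libraries alone. Those at 5 CPM or more on average in at least 1 DP group are called DP-expressed, those under 0.5 CPM in both are called absent from DP, and the rest lie between. Of 9635 DP-expressed genes tested, 427 (4.43%) were called, 155 higher and 272 lower. Of 1523 genes between, 64 (4.20%) were called, 42 higher and 22 lower. Both shares were near the 4.59% of all genes tested. Of 251 genes absent from DP that passed the filter, 33 (13.1%) were called, 29 (11.6%) higher and 4 (1.59%) lower in BALB. The median log2 fold change of the 251 was 0.61, against 0.02 over all genes tested. The low-count filter let a rare gene through if 1 group was high enough. These values therefore say nothing about the 4343 genes of the class with a count in whole thymocytes. Counts and medians of the rare-cell lists below carry the same limit. Summed over all genes absent from DP, filter or not, the level was 2386 and 2234 CPM in B6 and 3358 and 3593 CPM in BALB, so the groups did not overlap. Nor did they in the other classes. Genes between summed to 8434 and 8062 CPM in B6 and 11997 and 9395 CPM in BALB. DP-expressed genes summed to 965836 and 973954 CPM in B6 and 939135 and 955603 CPM in BALB.

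The same strain contrast in sorted DP thymocytes shares no library with that in whole thymocytes. It called 1482 genes (13%). That number was 659 without B6 DP replicate 1, 509 without B6 DP replicate 2 and 3493 without BALB DP replicate 2. Of the 524 genes called in whole thymocytes, 377 were called there in the same direction and 2 in the opposite direction. The 377 are 71.9% of the calls in whole and 25.4% of those in DP thymocytes. By class, 352 of the 427 DP-expressed and 25 of the 64 genes between were among them. The test of whether the strain difference itself was unlike in whole and in DP thymocytes called 14 genes (0.123%), all DP-expressed, and had 1243 genes at an unadjusted p under 0.05. It called 0 without B6 replicate 2 of whole thymocytes, 8 without B6 replicate 1, 8 and 47 without replicate 1 of B6 or BALB DP, and 1311 without BALB DP replicate 2. Of the 33 called genes absent from DP, 11 had no count in any DP library, where 3 counts are worth 0.526 to 1.16 CPM.

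Genes of the DP stage were lower in BALB or did not pass the test. Of 22 genes on a DP list, 9 (40.9%) fell and none rose, while 2.61% of all genes tested fell. In sorted DP thymocytes 10 of the 22 were called lower in BALB and 0 higher, while 13% of all genes tested were called there in either direction. In whole thymocytes the values were as follows. Their median log2 fold change was -0.21 against 0.02 over all genes tested. Their summed level was 22956 and 23482 CPM in B6 and 18861 and 18418 CPM in BALB. This list, like the others, was chosen with earlier results of these data known, so its counts are a description and no test. Rag1 (chr2:101638252-101649532, build mm10), 1 chain of the recombinase, stood at 5372 and 5662 CPM in B6 and at 3538 and 3183 CPM in BALB. Both BALB values lay below both B6 values, with a log2 fold change of -0.72 ± 0.08 (SE; adjusted p = 0.000147). Dntt, which adds bases at receptor gene joints, had 1308 and 1374 CPM in B6 and 885 and 783 CPM in BALB (-0.69 ± 0.09, adjusted p = 0.00105). The water channel gene Aqp11 (chr7:97726379-97738247) had the largest change on the list, from 99.0 and 116 CPM in B6 to 14.5 and 11.0 CPM in BALB (-3.07 ± 0.18, adjusted p = 1.11e-06). Those 3 calls held when any 1 of the 8 libraries was left out.

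The other 6 that fell did so by less or with less support. Ptcra, the surrogate alpha chain of the pre-T cell receptor, had 21.0 and 18.4 CPM in B6 against 10.1 and 8.24 CPM in BALB (-1.09 ± 0.22, adjusted p = 0.0112). Slamf6, a receptor of the SLAM family needed in the making of innate-like T cells, had 115 and 116 against 71.2 and 72.9 CPM (-0.68 ± 0.11, adjusted p = 0.00414). In both the strains did not overlap. Arpp21, Plxnd1 and Mns1 changed by -0.39, -0.42 and -0.82. Of the 9 calls on the list, 3 were left without B6 replicate 1 or without B6 replicate 2 of whole thymocytes, and 4 without BALB replicate 1 or without BALB replicate 2. Ptcra, for one, went to adjusted p = 0.128 without B6 replicate 1 and 0.126 without BALB replicate 2, and Slamf6 to 0.0656 without B6 replicate 2.

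Genes of the 2 coreceptors that define DP cells were not called. Cd8a had 1272 and 1326 CPM in B6 and 1305 and 1332 CPM in BALB (0.02 ± 0.08, adjusted p = 0.958), with overlapping groups. Cd4 had 1097 and 1099 against 1046 and 992 CPM (-0.11 ± 0.10, adjusted p = 0.731). Rag2, the partner of Rag1, had 234 and 236 CPM in B6 and 228 and 165 CPM in BALB, and was not called (-0.26 ± 0.15, adjusted p = 0.523). The strains did not overlap, as in 48.6% of all genes tested, and BALB replicate 2 lay well below replicate 1. Cd8b1, Satb1, Tcf7, Themis and Bcl6 were not called either, at -0.05, -0.21, -0.11, -0.15 and -0.21.

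**Figure D2:**
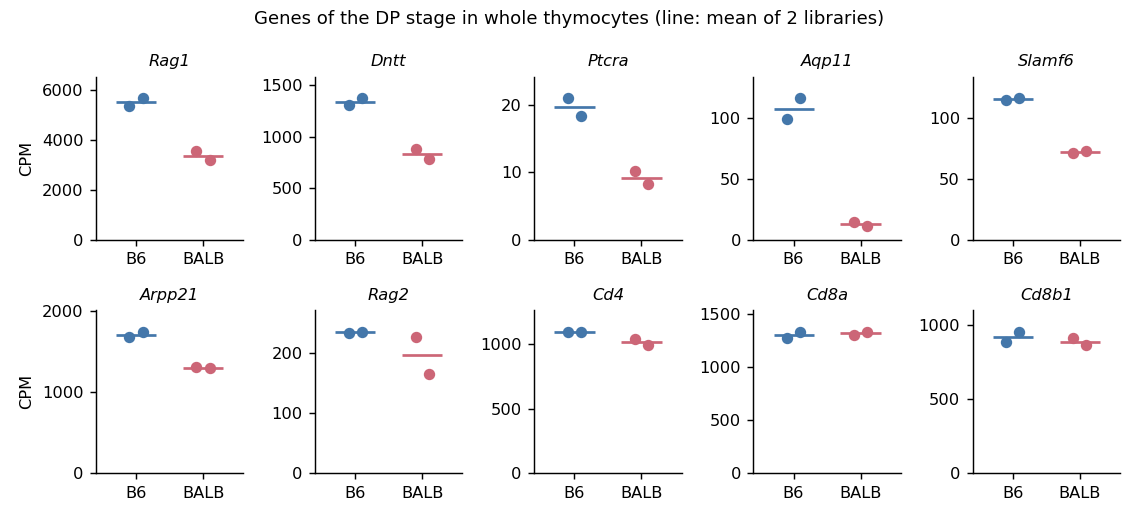
Levels of 10 DP-stage genes in whole thymocytes (CPM, each axis from 0), with 1 point for each of 2 libraries per strain and a line at their mean. The first 6 genes fell in BALB, without overlap. Rag2, Cd4, Cd8a and Cd8b1 were not called, and for Cd8a and Cd8b1 the strains overlapped.

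On the list of recombination and DNA end joining the median was 0.07 (-0.01 without BALB replicate 1 of whole thymocytes), with 10 of 17 genes above 0. The 3 that fell were Rag1, Dntt and Xrcc6, the Ku70 subunit that holds broken DNA ends (437 and 422 against 334 and 306 CPM, -0.43 ± 0.09, adjusted p = 0.0215). Xrcc6 lost its call when any 1 whole thymocyte library was left out (adjusted p 0.0657 to 0.249). Prkdc, the end-joining kinase known to carry a hypomorphic allele in BALB/c mice, had 132 and 137 CPM in B6 and 167 and 139 CPM in BALB and was not called (0.19 ± 0.12, adjusted p = 0.552).

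None of 30 cell cycle genes was called in whole thymocytes by edgeR, 1 had an unadjusted p under 0.05, DESeq2 called 0 and limma-voom 1. Mki67, the proliferation antigen, had 2861 and 3105 CPM in B6 and 3187 and 3061 CPM in BALB, and Top2a, which untangles replicated DNA, 1332 and 1411 against 1546 and 1390 CPM. In both the strains overlapped. In sorted DP thymocytes 24 of the 30 were called higher in BALB, 8 without B6 DP replicate 2 and 14 without B6 DP replicate 1. The test of the difference between the populations called 0 of the 30 genes by edgeR, DESeq2 or limma-voom, with 26 at an unadjusted p under 0.05. With edgeR it called 23 without BALB DP replicate 2, 2 without BALB DP replicate 1 and 13 without the low-count filter. The sign of the list's median of 0.00 in whole thymocytes changed with the scaling.

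Among genes of receptor signalling, 19 were tested, with 2 higher and 2 lower. Cd5, an inhibitor set by the strength of receptor signals, had 161 and 160 CPM in B6 and 243 and 253 CPM in BALB (0.63 ± 0.11, adjusted p = 0.00605). The adhesion receptor gene Cd2 had 159 and 146 against 249 and 298 CPM (0.84 ± 0.11, adjusted p = 0.000925). Both rose without overlap, and in sorted DP cells they were called higher too, at 0.87 and 1.62. Slamf1 fell (-0.59), as did Cd28, a costimulatory receptor that was sparse here, with 4.25 and 4.11 CPM in B6 and 0.725 and 0.25 CPM in BALB (-3.01 ± 0.69, adjusted p = 0.00754). Cd2 kept its call without each library. Cd5 lost it without B6 replicate 1 or 2 or BALB replicate 2 (adjusted p 0.0673 to 0.112), Cd28 without the same 3 (0.0719 to 0.103) and Slamf1 without any 1 whole library (0.0607 to 0.170).

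Of receptor-induced genes outside those 4, Cd69, Egr1 and Nr4a1 were not called, at 0.27, 0.36 and 0.62. None of 14 immediate early genes was called by edgeR, DESeq2 or limma-voom, and 4 had an unadjusted p under 0.05. Among 24 genes of the receptor machinery 1 was called, the phosphatase gene Ptpn22 (-0.55), and Lck stood at 1089 and 1109 CPM in B6 and 1067 and 1090.5 CPM in BALB. Ptpn22 lost its call without any 1 whole library (adjusted p 0.100 to 0.253).

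Of 21 tested genes of maturation and egress, 2 rose and 1 fell, with a median of 0.21. Gimap4, a GTPase of maturing T cells, had 87.0 and 80.8 CPM in B6 and 136 and 146 CPM in BALB (0.75 ± 0.14, adjusted p = 0.00710), and Ms4a6b rose by 0.64. Emb, an adhesion protein gene, fell by 0.77. Il7r, the survival receptor, had 54.5 and 42.3 against 89.4 and 71.6 CPM and missed the threshold (0.73 ± 0.20, adjusted p = 0.0657). Gimap4 and Ms4a6b lost their calls without any 1 whole library (adjusted p 0.0578 to 0.316), and Emb without B6 replicate 2 or BALB replicate 1 (0.0644 and 0.0607).

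No gene of 8 on a CD4 list or of 8 on a CD8 list was called by edgeR. Each list had 2 genes at an unadjusted p under 0.05, DESeq2 called 0 in both, and limma-voom called 2 on the CD4 list and 0 on the CD8 list. Zbtb7b, the CD4 lineage factor, had 26 and 19.8 CPM in B6 and 28.7 and 25.5 CPM in BALB, and Runx3, its CD8 counterpart, 37.0 and 37.2 against 47.6 and 40.2 CPM.

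Among genes of rarer T cells, some of those that mark innate-like and memory-like cells rose in BALB. Eomes (chr9:118478186-118486132), the memory-like CD8 factor, had 1.75 and 0 CPM in B6 and 31.9 and 29.5 CPM in BALB. Its log2 fold change was 5.10 ± 0.75 (adjusted p = 0.000177), and 4.11 without B6 replicate 2. Without B6 replicate 1 the remaining B6 library was at 0 and the fitted value, 9.94, depends on the prior count. In the sorted DP libraries it had 1 count among all 4. Zbtb16 (chr9:48651797-48836225), which encodes PLZF, had 8 and 4.11 CPM in B6 and 37.0 and 22.5 CPM in BALB (2.30 ± 0.37, adjusted p = 0.00316). The strains did not overlap in either gene, and the 2 BALB libraries were closer to each other in Eomes than in Zbtb16.

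Il2rb (chr15:78479256-78511621), the IL-2 and IL-15 receptor beta chain, had 24.7 and 19.6 CPM in B6 and 43.5 and 46.4 CPM in BALB (1.02 ± 0.19, adjusted p = 0.0128). Cd44, an adhesion receptor kept high on memory cells, had 27.0 and 23.9 against 75.3 and 56.2 CPM (1.37 ± 0.18, adjusted p = 0.000545). Cd44 was also called in sorted DP cells (1.76), so it is not a gene of rare cells alone. Il18r1, an IL-18 receptor chain named here after its values were seen, had 6.75 and 4.84 against 28 and 23.7 CPM (2.16 ± 0.27, adjusted p = 0.000591).

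As lists, 3 of 18 genes (16.7%) of the IL-4 response and memory-like CD8 cells rose and none fell, against 1.98% higher over all genes tested. Of these 18, 9 were absent from DP, and 11.6% of all tested genes of that class were called higher. Of 12 genes of type 1 innate-like cells 2 rose, Il2rb among them, and 0 were called without any 1 of the 4 whole libraries. Of 7 tested genes of type 2 cells Zbtb16 rose and Slamf1 fell. Of 11 genes of the type 17 list none rose and 2 fell, among them the IL-17 receptor chain gene Il17re (-1.48), whose call was lost without any 1 whole library (adjusted p 0.0864 to 0.276). The medians were 0.28, 0.62, -0.23 and 0.22, against 0.02 over all genes. Tested genes absent from DP, 7 of the 12 type 1 genes among them, had a median of 0.61, with 11.6% called higher. The type 1 list, at 16.7% called and a median of 0.62, lay near that class. The median of the type 2 list became 0.02 without B6 replicate 1. That of the type 17 list became 0.45 without B6 replicate 1 and -0.05 without B6 replicate 2, or -0.40 with a strict filter on low counts. Eomes, Cd44 and Il18r1 kept their calls when any 1 library was left out, though the DESeq2 Wald test did not call Eomes (adjusted p = 0.526). Zbtb16 lost its call without B6 replicate 2 or BALB replicate 1 (adjusted p = 0.0534 and 0.0514). Il2rb lost its call without any 1 of the 4 whole libraries (0.0520 to 0.191).

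The cytokine itself was near the floor. Il4 had 2 and 2 counts in B6 and 5 and 5 in BALB and, like Il13, was too sparse to test. Il4ra, its receptor, had 211 and 217 CPM in B6 and 181 and 181 CPM in BALB and was not called (-0.24 ± 0.18, adjusted p = 0.641). Cxcr3, a memory cell chemokine receptor, had 0 and 0.968 against 4.35 and 4.24 CPM and was not called (3.05 ± 0.95, adjusted p = 0.0553). The tools differed on it, with an adjusted p of 0.0269 by limma-voom and 0.9997 by the DESeq2 Wald test. Its log2 fold change ranged from 2.12 to 7.11 across the alternative fits. Tbx21, Klrd1, Klrk1, Nkg7, Gata3 and Ccr4 were not called, at 0.50, 0.66, 0.91, 0.58, 0.11 and 0.67.

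**Figure D3:**
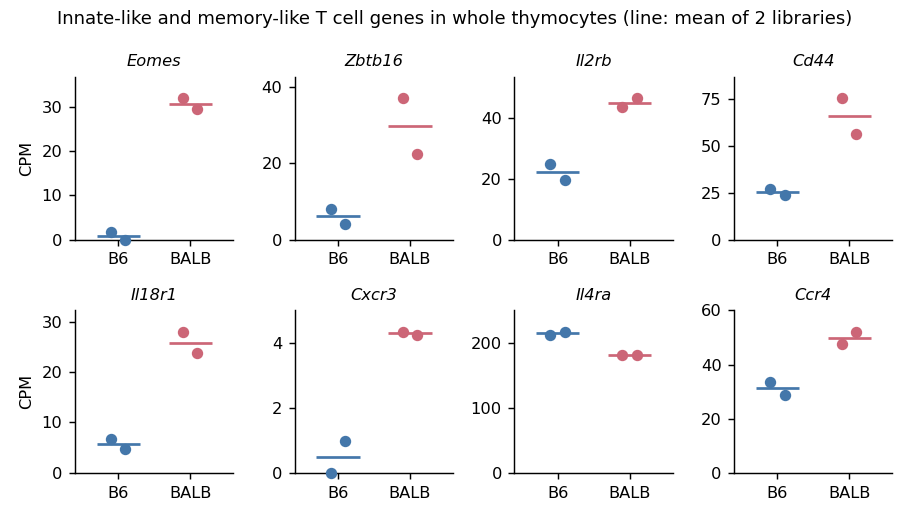
Levels of 8 genes of innate-like and memory-like T cells in whole thymocytes (CPM, each axis from 0), with 1 point for each of 2 libraries per strain and a line at their mean. In the first 5 genes both BALB libraries lay above both B6 libraries and the gene was called. Cxcr3, Il4ra and Ccr4 were not called.

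Regulatory T cell genes did not move together. Foxp3, their lineage factor, had 8.75 and 6.53 CPM in B6 and 5.07 and 7.99 CPM in BALB (-0.23 ± 0.35, adjusted p = 0.875), with overlap. Of 12 tested genes on the list, Il2ra and Nrp1 fell and the actin-capping gene Capg rose. Nrp1 went from 81.2 and 80.8 to 29.5 and 35.2 CPM (-1.33 ± 0.15, adjusted p = 0.000209), but sorted DP cells held it at 93.2 and 76.1 CPM in B6 and 40.5 and 38.4 CPM in BALB. Il2ra, shared with early precursors, had 77.0 and 55.4 against 35.5 and 35.0 CPM (-0.91 ± 0.18, adjusted p = 0.0128), and was the only called gene of 10 on the precursor list. Nrp1 kept its call without each library. Il2ra lost it without B6 replicate 1, BALB replicate 1 or BALB replicate 2 (adjusted p 0.112 to 0.234), and Capg without any 1 whole library (0.0955 to 0.453).

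Of 16 genes of cortical thymic epithelium, the stroma that displays selecting peptides, 9 passed the low-count filter, of which 3 rose and none fell. Sparse genes could pass that filter through the strain where they are high, so the count is no measure of the whole list. Prss16 (chr13:22002176-22009741), a protease of cortical epithelium, had 9 and 15.5 CPM in B6 and 44.4 and 45.7 CPM in BALB (1.87 ± 0.26, adjusted p = 0.00141). Cxcl12, a chemokine of stromal cells, had 2.50 and 1.45 against 5.80 and 7.49 CPM (1.74 ± 0.46, adjusted p = 0.0475). Psmb11, the proteasome subunit of these cells, had 1.75 and 2.18 against 4.11 and 4.24 CPM and was not called (1.07 ± 0.43, adjusted p = 0.239). The strains did not overlap in those 3 genes, which was also so for 48.6% of all genes tested.

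The third call, the protease gene Ctsl (chr13:64361890-64370772), was of another kind. It had 73.7 and 84.9 CPM in B6 and 709 and 675 CPM in BALB (3.12 ± 0.11, adjusted p = 2.44e-08). Sorted DP libraries held as much, 90.7 and 78.4 CPM in B6 and 962 and 940 CPM in BALB, so its level in whole thymocytes is no measure of epithelium. Without Ctsl the summed level of the list was 114 and 129 CPM in B6 and 192 and 235 CPM in BALB. Only 3 of the 9 tested genes were absent from DP, and 2 were called higher in sorted DP cells. That sum is thus no measure of epithelium alone either. Foxn1, the master factor of thymic epithelium, was at 0.25 and 0.484 CPM in B6 and 1.69 and 1.25 CPM in BALB, too low to test. Prss16 and Ctsl kept their calls without each library. Cxcl12 lost its call without any 1 of the 4 whole libraries (adjusted p 0.144 to 0.489).

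Of 13 genes of medullary epithelium 8 passed the low-count filter, of which 1 rose and 1 fell. Krt5, a basal keratin, had 0.5 and 0.968 CPM in B6 and 3.62 and 4.49 CPM in BALB (2.41 ± 0.68, adjusted p = 0.0463). Cldn4, a tight junction gene also found in DP libraries at 8.93 to 14.6 CPM, fell (-1.23 ± 0.29, adjusted p = 0.0275). Aire, which drives tissue antigens in the medulla, had 4 and 3.63 against 2.66 and 3.25 CPM and was not called. Krt5 lost its call without any 1 whole library (adjusted p 0.172 to 0.449), and Cldn4 without B6 replicate 1, B6 replicate 2 or BALB replicate 2 (0.117 to 0.233). The listed chemokine genes Ccl21a and Ccl19 had no count in any whole library. Dsp, a desmosome gene picked out after its values were seen, had 7.25 and 11.4 against 30.4 and 26.2 CPM (1.60 ± 0.26, adjusted p = 0.00246), a call that held without each library.

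MHC class II genes, which display peptides to CD4 T cells, split by gene. H2-Ea-ps (chr17:34341952-34344645), the E alpha chain, had 0 counts in both B6 libraries and 97 and 97 counts (23.4 and 24.2 CPM) in BALB, at least 64.6-fold higher against a floor of 3 counts over the group. B6 mice are known to carry a deletion that silences this gene, which the reference genome therefore lists as a pseudogene. H2-Aa (chr17:34282744-34287823), the A alpha chain, had 31.0 and 21.0 CPM in B6 and 10.1 and 6.99 CPM in BALB (-1.60 ± 0.30, adjusted p = 0.00751). Its partner H2-Ab1 (chr17:34263227-34269418) had 48.7 and 45.5 against 29.0 and 24 CPM (-0.83 ± 0.17, adjusted p = 0.0165). In all 3 the strains did not overlap.

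Their companions were not called. H2-Eb1, the E beta chain, had 30.5 and 34.3 CPM in B6 and 23.4 and 21.0 CPM in BALB (-0.55 ± 0.18, adjusted p = 0.156). Cd74, the invariant chain that escorts class II molecules, had 104 and 94.6 against 111 and 109 CPM (0.15 ± 0.17, adjusted p = 0.811), and Ctss, the protease that trims it, 25.7 and 27.3 against 29.7 and 29.5 CPM. H2-Aa lost its call without B6 replicate 1 (adjusted p = 0.171) or BALB replicate 2 (0.106), and H2-Ab1 without any 1 whole library (0.0578 to 0.185). H2-Ea-ps kept its call without each library. BALB reads were aligned to a reference made from B6, whose class II alleles differ in sequence, and the part of that in H2-Aa and H2-Ab1 was not tested.

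Class II promoters are known for a Y box, an inverted CCAAT motif bound by NF-Y. The 150 bases before the start of the called H2-Aa and of the uncalled H2-Eb1 are printed 5′ to 3′ on the gene's strand from RefSeq (GRCm38.p6), with CCAAT on either strand (CCAAT or ATTGG) in capitals. H2-Aa is on the minus strand (chr17:34287824-34287973) and H2-Eb1 on the plus strand (chr17:34305717-34305866).
H2-Aa: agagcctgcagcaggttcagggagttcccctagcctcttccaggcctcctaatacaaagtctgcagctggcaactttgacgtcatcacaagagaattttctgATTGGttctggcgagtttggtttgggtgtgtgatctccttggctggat
H2-Eb1: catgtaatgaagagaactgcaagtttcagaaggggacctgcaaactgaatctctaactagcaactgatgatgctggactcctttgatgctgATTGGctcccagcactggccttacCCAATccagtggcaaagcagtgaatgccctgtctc
The first match lies 48 bases before the start in H2-Aa and 59 in H2-Eb1. The motif is in 24.5% of 32851 such windows, and a match is a description, not a site shown to be used. Of the other class II genes looked up, H2-DMa has 2 windows in the table, and neither holds the motif. These letters are those of the B6 reference.

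**Figure D4:**
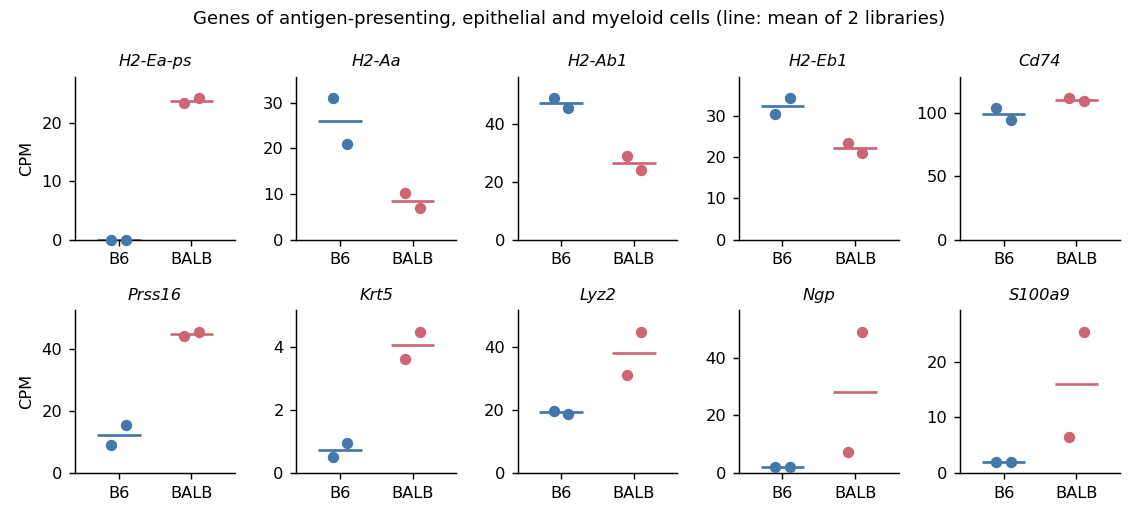
Levels of 10 genes of antigen-presenting, epithelial and myeloid cells in whole thymocytes (CPM, each axis from 0), with 1 point for each of 2 libraries per strain and a line at their mean. H2-Ea-ps, Prss16, Krt5, Lyz2, Ngp and S100a9 were called higher and H2-Aa and H2-Ab1 lower in BALB. Ngp and S100a9 were high mainly in BALB replicate 2.

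Antigen-presenting cells themselves gave few calls. None of 11 genes of conventional dendritic cells was called by edgeR, DESeq2 or limma-voom, with 1 at an unadjusted p under 0.05 and a summed level of 141 and 142 CPM in B6 and 168 and 180 CPM in BALB. None of 6 genes of activated dendritic cells was called by those 3 tools or had an unadjusted p under 0.05. Among them the chemokine gene Ccl22 had 4.75 and 3.63 against 7.49 and 6.49 CPM (0.74 ± 0.37, adjusted p = 0.414). On the plasmacytoid list 1 of 9 genes was called, Ly6d (-2.43), which DP libraries held at 73.8 and 62.6 CPM in B6 and 16.5 and 20.2 CPM in BALB. The listed Siglech had 5 and 4.35 against 6.28 and 4.49 CPM.

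Of 18 macrophage and monocyte genes 14 passed the low-count filter, of which 3 rose and none fell, with a median of 0.39. Of the 14, 7 were absent from DP. Among all tested genes of that class 11.6% were called higher and the median was 0.61, against 1.98% and 0.02 over all genes tested. Sparse genes could pass through the strain where they are high, so the count is no measure of the whole list. Ccr2, the receptor that brings monocytes into tissue, had 4.75 and 4.35 CPM in B6 and 14.7 and 12.2 CPM in BALB (1.56 ± 0.33, adjusted p = 0.0143). Lyz2, a lysozyme gene, had 19.7 and 18.9 against 31.2 and 44.9 CPM (0.98 ± 0.25, adjusted p = 0.0463), and Apoe rose by 0.60. The complement genes C1qa, C1qb and C1qc were not called, at 1.08, 0.34 and 0.41. No call of the 3 held without B6 replicate 1, B6 replicate 2 or BALB replicate 2 (adjusted p 0.0520 to 0.435). Without BALB replicate 1 only Apoe was called (0.0433).

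Granulocyte genes separated the 2 BALB libraries. The 12 listed genes found summed to 13.7 and 11.9 CPM in B6 and to 27.8 and 182 CPM in BALB replicates 1 and 2. Only 3 of the 12 passed the low-count filter. Ngp, a neutrophil granule gene, had 2 and 2.18 CPM in B6 and 7.25 and 49.2 CPM in BALB (3.73 ± 0.92, adjusted p = 0.0167). S100a9 had 2 and 1.94 against 6.52 and 25.5 CPM (3 ± 0.73, adjusted p = 0.0209). Neither call held without BALB replicate 2 (adjusted p = 0.145 and 0.296), nor without B6 replicate 1 (0.152 and 0.175) or 2 (0.152 and 0.193), and limma-voom called 0 of 3. The untested Mpo and Prg2 also stood at 16.5 CPM each in BALB replicate 2 against 1.25 CPM or less in the other 3 libraries.

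Of 12 tested B cell genes, Ralgps2 rose (0.46) and Cd79b fell (-1.41), and both were also called in sorted DP cells, at 0.64 and -1.43. Igj (now Jchain), the joining chain of secreted antibody, had 10.5 and 10.4 CPM in B6 and 36.2 and 27.0 CPM in BALB (1.59 ± 0.31, adjusted p = 0.00906), the 1 call among 4 plasma cell genes. It was lost without B6 replicate 1, B6 replicate 2 or BALB replicate 1 (adjusted p 0.107 to 0.124), and Ralgps2 and Cd79b lost theirs without any 1 whole library (0.0908 to 0.318). The listed B cell maturation antigen gene Tnfrsf17 had no count. Of 3 erythroid genes Car2 rose (1.44), a gene also called in DP cells (1) that lost its call without B6 replicate 1, B6 replicate 2 or BALB replicate 1 (adjusted p 0.0513 to 0.103), while Hba-a1, Hba-a2 and Hbb-b1 had no count. The haemoglobin gene Beta-s (now Hbb-bs) had 7 and 9.68 CPM in B6 and 11.6 and 17.2 CPM in BALB and was not called. None of 6 mesenchymal genes and not the 1 endothelial gene tested was called by edgeR, DESeq2 or limma-voom (1 and 0 at an unadjusted p under 0.05).

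**Figure D5:**
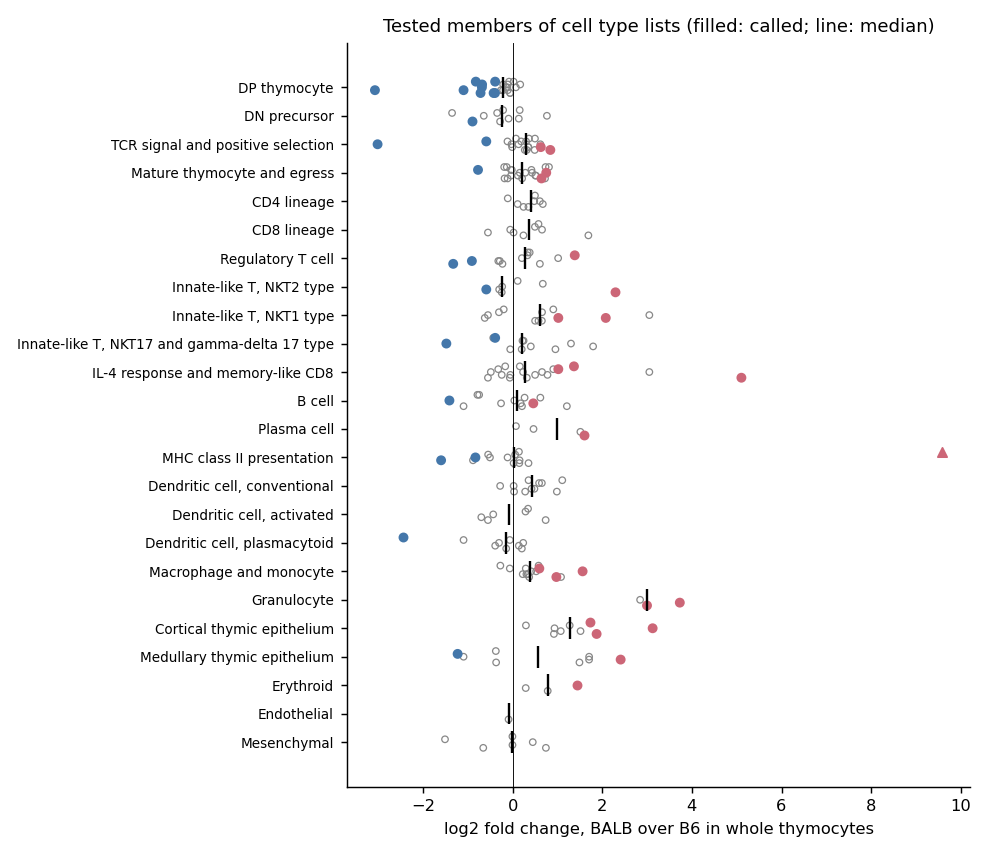
Log2 fold change of BALB over B6 in whole thymocytes for each tested member of 24 cell type lists. Each circle is 1 gene, filled red where called higher and blue where called lower, the triangle is H2-Ea-ps at 0 in B6, and the black line is the list's median. The 3 called genes of cortical epithelium lie right of 0, and the 9 called DP genes lie left.

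The 33 called genes absent from DP held more than the marker lists, which name 10 of them. The largest rises after Eomes were small in absolute level. Cdcp1, Eya1, Zan, Pxdc1, Map2, Trpm6 and Tenm4 stood at 0 to 1.21 CPM in each B6 library and at 2.50 to 7.73 CPM in each BALB library, without overlap. None of those 7 calls held when B6 replicate 1 was left out (adjusted p 0.121 to 0.394). Of genes picked out after their values were seen, the matrix protein gene Tnc had 5 and 6.77 against 24.2 and 16.2 CPM (1.77 ± 0.33), and the receptor gene Tlr1 3 and 0.968 against 10.4 and 10.7 CPM (2.40 ± 0.50). Both of these lost their calls without B6 replicate 2 or BALB replicate 1 (0.0668 to 0.185). The 4 that fell were the imprinted RNA H19, the endothelial receptor gene Acvrl1, Pydc4 and H2-Aa. H19 had 7.25 and 5.08 CPM in B6 and 0.242 and 0.999 CPM in BALB, and Acvrl1 6.75 and 6.53 against 0.725 and 0.999 CPM. Both lost their calls without any 1 whole library (0.0758 to 0.222), and Pydc4 without B6 replicate 1, B6 replicate 2 or BALB replicate 2 (0.240 to 0.274). Without 1 whole thymocyte library the class held 5 to 13 calls in place of 33, 5 without B6 replicate 2 and 13 without BALB replicate 1.

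Outside the cell type lists, the largest differences were in genes nearly silent in 1 strain. Ddr1, a collagen receptor gene in the MHC region (chr17:35681567-35704741), had 4 and 4.84 CPM in B6 and 102 and 113 CPM in BALB (4.59 ± 0.30, adjusted p = 1.11e-06). The lipid enzyme gene Ugt8a had 0 counts in B6 and 138 in BALB, at least 45.9-fold higher. Sycp1, Mia2 and G530011O06Rik were at 0 counts in B6 too, with bounds of 23.3, 22.6 and 14.3-fold. Rprl2, an RNA with near-identical copies whose reads could be split, had 1 count against 472, a ratio of 471 (95% exact counting interval 84.2 to 18656). Xist was among the 12 largest rises, but it was high mainly in BALB replicate 1, which had 0 CPM of the Y-linked genes named above. Its log2 fold change of 9.66 became 4.76 without that library. Its call was lost without B6 replicate 1 or 2 (adjusted p = 0.0712 and 0.0839).

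Among the largest falls, Trim12a (chr7:104299893-104315558), of the TRIM family of antiviral genes, had 121 and 104 CPM in B6 and 0.242 and 0.999 CPM in BALB (-7.45 ± 0.60, adjusted p = 6.68e-08). Rab6b, a vesicle transport GTPase, had 65.0 and 71.4 against 1.21 and 0 CPM (-6.73 ± 0.70). Slc15a2, a peptide transporter, had 244 counts in B6 and 2 in BALB, a ratio of 122 (interval 33.5 to 1015). Rbm44 had 67 counts against 0, at least 22.4-fold lower, and D630041G03Rik 57 against 0, at least 19.0-fold lower. D630041G03Rik (chr7:4467245-4470884) lies within Eps8l1 (chr7:4460638-4480487), which fell from 43.0 and 54.2 to 0.725 and 0.499 CPM, and with a kit that does not keep strand their reads cannot be told apart.

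Genes listed because they are known to vary between strains gave 8 calls among 19 tested (42.1%), against 4.59% of all genes tested. The list was chosen for such differences, so its share is a description. Of the 34 listed genes found, 15 did not pass the low-count filter. The higher 4 were H2-Ea-ps, Gbp1, Ifi204 and Ctse, and the lower 4 Trim12a, Trim30d, Apobec3 and Slamf6. Gbp1 (now Gbp2b), a guanylate-binding protein gene of a family with close copies, had 1 count in B6 and 160 in BALB, a ratio of 160 (interval 28.3 to 6350). Apobec3, a cytidine deaminase that restricts retroviruses, had 100 and 112 CPM in B6 and 24.9 and 22.2 CPM in BALB (-2.17 ± 0.14, adjusted p = 3.31e-06). Ctse, an aspartic protease gene, had 19.7 and 15.2 against 125 and 143 CPM (2.94 ± 0.20). Nnt, a mitochondrial enzyme gene truncated in the C57BL/6J substrain, had 97.7 and 109 against 96.6 and 105 CPM and was not called (-0.04 ± 0.12, adjusted p = 0.95).

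Of 18 tested genes of the MHC class I region, 4 rose and 3 fell. H2-K1, a classical class I chain, had 180 and 165 CPM in B6 and 82.6 and 65.7 CPM in BALB (-1.22 ± 0.13, adjusted p = 0.000167). B2m, the light chain shared by class I molecules, had 176 and 165 against 165 and 174 CPM (-0.01 ± 0.13), with overlap. H2-T3, which encodes the TL antigen, had 4 and 4.35 against 29.9 and 38.9 CPM (3.03 ± 0.25), and H2-Q10 rose as well, 125 counts against 3. H2-Q1 and H2-Q4 rose by 0.94 and 0.61, but without any 1 whole library only 2 of the 4 higher calls on the list were left, H2-Q10 and H2-T3. H2-Q2 and H2-T10 fell by 2.18 and 2.14. These genes are near-identical copies that differ between haplotypes, so reads may have been split or lost, and the part of that in these values was not tested. The 2 Mb stretch of chromosome 17 from 34000001 to 36000000, which holds the MHC, had 11 calls among 82 tested genes. The chromosome had 39 of 588 (6.63%), and 4.59% of all genes tested were called. The stretch was 1 of 7 of that length with 5 or more calls. Among the others were 6 of 11 and 5 of 11 tested genes on chromosome 1, 5 of 14 on chromosome 5 and 7 of 43 on chromosome 15.

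Interferon-response genes showed no common direction, with 2 of 30 higher and 2 lower. Mx2, an antiviral GTPase, had 4 and 3.39 CPM in B6 and 12.1 and 11.5 CPM in BALB (1.67 ± 0.32, adjusted p = 0.00690), and Ifi44 rose by 2.05. Gbp6 fell from 36.0 and 29.0 to 5.55 and 5.24 CPM (-2.58 ± 0.27, adjusted p = 7.53e-05) and Gbp4 by 0.43. Gbp6 kept its call without each library. Gbp4 (adjusted p 0.144 to 0.279) and Ifi44 (0.0990 to 0.267) lost theirs without any 1 whole library, and Mx2 without B6 replicate 1, B6 replicate 2 or BALB replicate 1 (0.0581 to 0.128). Among 9 heat shock genes 1 was called, Hspa8 (-0.62), which was lost without any 1 whole library (0.0610 to 0.370). Natural killer receptor genes were too sparse for most tests: 2 of 25 were tested, and edgeR, DESeq2 and limma-voom called 0, with 0 at an unadjusted p under 0.05.

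Some calls in whole thymocytes were also lost when a sorted B6 DP library was left out. Without B6 DP replicate 1 or without B6 DP replicate 2, Capg, Cd79b, Cdcp1, Cxcl12, Gbp4, Il17re, Krt5, Ms4a6b, Pxdc1, Pydc4, Ralgps2 and Xrcc6 were not called (adjusted p 0.0522 to 0.0788). Mns1 and Eya1 were lost without B6 DP replicate 2 (0.0504 each), and Ptpn22 lay just above the threshold without B6 DP replicate 1 (0.0500046).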

How the data were processed

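RNA of 8 mouse libraries, 2 per strain of whole thymocytes and of sorted DP thymocytes, was sequenced from a TruSeq kit that does not keep strand. The deposited values are raw counts per gene symbol, which the authors made with HISAT2 2.2.0 and HTSeq (version not given) on build mm10, per the submitters' processing notes. Those notes also name DESeq2 1.42.1. Of 11214574 to 19602652 reads listed per library, 22.6% to 30.8% were counted in genes. Lines for reads outside genes, ambiguous or not aligned stayed out of library sizes and tests. The effect of aligning BALB reads to the B6-based reference was not tested.

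Counts were fitted in R 4.3.3 with edgeR 4.0.16 (TMM scaling, filterByExpr, glmQLFit and glmQLFTest) on all 8 libraries, with 1 coefficient for each of 4 groups and no covariate. P-values were adjusted by the Benjamini-Hochberg method over all 11409 genes, and a gene was called at an adjusted p under 0.05. CPM are counts scaled to a common size by the TMM-scaled library total. Every log2 fold change is BALB over B6 and its error is the standard error of the fit. The fit was tested on simulated counts. Alternatives were DESeq2 1.42, limma 3.58.1 (voom), other scalings and filters, a replicate block, and leaving out libraries. Coordinates and promoter sequences are from RefSeq GRCm38.p6, to which 23260 of 23420 symbols matched.

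The 34 gene lists (580 entries, 575 found, 7 of them under an older symbol) and the members were chosen with earlier results of these data known. Named genes are the 12 largest called changes each way without overlap between the groups and with at least 5 CPM on average in the higher group, the 8 largest each way among called genes absent from DP (at least 1 CPM), up to 5 called members of smallest p and 3 uncalled members of highest level per list, the 6 interaction genes of smallest p each way, called neighbours of a named gene, and a set of known thymic genes. List members named beyond that rule, among them Plxnd1, Bcl6, Themis, Il7r, Zbtb7b, Runx3, Foxn1, C1qb, C1qc, Mpo, Prg2, Siglech, Ifi204, Trim30d, H2-Q1 and H2-Q4, were chosen after their values were seen. Some list members are not reported here.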

Additional observations from a re-analysis of the deposited data

Results flagged for a closer look

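The difference between the strains in whole thymocytes departed from that in sorted DP thymocytes for 14 genes, by edgeR's quasi-likelihood test of the difference itself. Values are the log2 fold change of BALB over B6 in whole minus that in DP thymocytes.

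In 2 genes called in whole thymocytes the fold change was positive there and negative in DP thymocytes. Dst, which encodes a linker of the cytoskeleton, had 95.5 and 97.7 CPM in B6 and 187 and 193 CPM in BALB whole thymocytes, but 63.4 and 59.0 against 45.0 and 44.6 CPM in DP thymocytes, a difference of 1.419 ± 0.16 (SE). Sidt1 had 17.7 and 16.7 against 42.7 and 34.5 CPM in whole and 13.5 and 17.1 against 4.73 and 1.94 CPM in DP thymocytes, a difference of 3.19 ± 0.41.

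In 8 others both fold changes were negative and that in DP thymocytes was the larger. The differences were 1.73 for Pde3b, 2.92 for Kbtbd11, 1.80 for Cmah, 1.97 for Als2cl, 2.18 for Tns3, 2.80 for Hspg2, 3.27 for Zc3h12d and 1.55 for Epsti1. Pde3b, which breaks down cyclic nucleotides, stood at 119 and 108 against 96.6 and 97.1 CPM in whole and at 86.3 and 83.9 against 21.4 and 22.5 CPM in DP thymocytes. St6gal1, a sialyltransferase gene, and Gramd3 had uncalled positive values in whole and negative ones in DP thymocytes, with differences of 1.71 and 2.08. The difference was -3.14 for 1500009L16Rik, which was higher in BALB DP (17.3 and 9.71 against 2.83 and 3.20 CPM) and not called in whole thymocytes.

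The Y-linked Eif2s3y differed by -4.16. It had 0 and 8.49 CPM in the BALB whole libraries and 62.6 to 84.1 CPM in the other 6, beside the levels of Xist and of the other Y-linked genes in those BALB libraries.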

How the results depend on the processing

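None of the 98 called genes followed through all settings changed direction. The 14 interaction calls, 12 higher and 2 lower, gave way to sets with 256 of 364 lower without the low-count filter and 927 of 1311 lower without BALB DP replicate 2. Without the low-count filter 839 genes were called in whole thymocytes (383 higher, 456 lower), 364 in the interaction and 73 among genes absent from DP, and with a strict filter 325 (108 higher) and 2 absent from DP. DESeq2's Wald test called 140 higher, 24 in the interaction and 10 absent from DP. The interaction had 8 calls by limma-voom and 23 with robust empirical Bayes. Tested against a fold of 1.5, 217 genes were called (103 higher, 114 lower), 302 in DP thymocytes, 7 in the interaction and 15 absent from DP. With only the 4 whole libraries 1050 were called (454 higher, 596 lower, 65 absent from DP), and without both BALB DP libraries 961 (413 higher, 548 lower, 53 absent from DP). The causes were not tested. Leaving out 1 library gave 214 to 966 calls, 83 to 418 higher and 131 to 549 lower, 509 to 3493 in DP thymocytes, 0 to 1311 in the interaction and 5 to 59 absent from DP. DESeq2 size factors gave 530 calls, upper-quartile scaling 538, limma-voom 520 and robust empirical Bayes 579. With the replicate block 465 genes were called (195 higher, 270 lower), 1321 in DP thymocytes, 11 in the interaction and 26 absent from DP. Same-numbered libraries did not deviate together from their group means across genes (correlations -0.042 to 0.081). Whether any of them share an animal or a batch was not tested. Of those 98 genes, 38 kept their call in every one and 60 lost it in at least 1, while 30 of 112 not called were called in at least 1. Rare-cell genes rest on few counts: 3 counts are worth 0.526 to 1.16 CPM in a DP library.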
